A study of Mus musculus with 14 samples.

Results

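Thymic natural killer T (NKT) cells taken 3 d after dexamethasone were compared with NKT cells taken 18 h after it, to describe which early changes had faded or rebounded by the later time and which changes first appeared there. The comparison used the 4 libraries of the 3 d group and the 5 libraries of the 18 h group, 9 of the 14 libraries of the series, chosen by their labelled treatment and time. All mice were young wild-type males, and cells were sorted from the thymus and sequenced by bulk MARS-seq, which counts the 3′ ends of polyadenylated transcripts. In the 3 d and 18 h groups, mice had received dexamethasone, a synthetic glucocorticoid, into the peritoneum at 200 ug per 10 g of body weight. The remaining 5 libraries came from age-matched wild-type males that received the vehicle, 8% ethanol, and were taken at 3 d. They serve here only to place a change between the times relative to the levels in vehicle-treated mice. Vehicle libraries from 18 h are not analysed here, so the effect of time after injection and any effect of handling or hour of sampling cannot be told apart in a contrast that involves the 18 h group. Whether each replicate was 1 mouse or a pool is not stated in the labels. The p-values therefore reflect variation among the sequenced samples, whatever its source.

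NKT cells carry a T cell receptor for lipids bound to CD1d. In the mouse thymus they fall into NKT1, NKT2 and NKT17 subsets, which are known for interferon gamma, for interleukins 4 and 13, and for interleukin 17. Dexamethasone binds the glucocorticoid receptor, a transcription factor that induces genes such as Tsc22d3 and Fkbp5 and represses many inflammatory genes, and at high dose it kills most developing thymocytes. Interferon-stimulated genes are switched on by interferon receptor signalling through a promoter element, the interferon-stimulated response element. Thymic NKT1 cells carry many receptors and effector genes of natural killer (NK) cells, while genes of DNA replication and mitosis mark dividing cells.

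Libraries held 1070861 to 1517751 counts at 3 d, 1073583 to 2203273 at 18 h and 977037 to 2078540 in vehicle, and 1 count was worth 0.471 to 1.11 CPM (counts scaled to library size). Low genes are therefore measured coarsely. Some libraries stood apart from their group. On the first principal component of log2 CPM, which held 38.7% of the variance, vehicle replicate 3 scored 16.6 and the other vehicle libraries 44.7 to 45.8. The 18 h replicate 1 was the highest at 18 h for many NKT1 genes, and the 18 h replicates 2 and 3 carried Cd8b1. Cd8b1, a coreceptor subunit of conventional T cells and immature thymocytes, was at 21.3, 12.3, 11 and 12.4 CPM in the 3 d replicates 1 to 4, at 10.9, 1008, 648, 9.43 and 27.5 CPM in the 18 h replicates 1 to 5 and at 27 to 71.2 CPM in vehicle, and was not called between the times (-4.54 ± 1.45, adjusted p = 0.068). It was called lower at 3 d by DESeq2 (-4.58, adjusted p = 6.1e-04) and without the 18 h replicate 1 or 4 (-4.85, adjusted p = 0.036, and -4.86, adjusted p = 0.031). Leaving out both of the 18 h replicates 2 and 3 gave -0.13, adjusted p = 0.91. Of 15 listed markers of conventional T cells, 14 could be summed, to 885 to 1052 CPM at 3 d and 874 to 1032 CPM in vehicle. At 18 h the sum was 4039 and 3214 CPM in replicates 2 and 3 against at most 1408 CPM in the other libraries. Some named genes lost their call or moved by more than 1.5 times without replicates 2 and 3, and their values without them are given below. Of the 12 listed NKT cell markers, Trac, Trav11 and Trav11d are not analysed here. Zbtb16, which encodes PLZF, was detected in every library. It was at 14 to 26.6 CPM at 3 d, 18.8 to 77.3 CPM at 18 h and 41.7 to 81.7 CPM in vehicle. Cd3e and Cd3g were also detected in every library, but conventional T cells carry them too. Markers of thymic epithelium, fibroblasts and granulocytes summed to at most 11.3 CPM in any library, over the few that are listed. Bulk libraries cannot tell fewer cells of a type from less RNA per cell, and this holds for each gene below.

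Between the times, 931 of 7965 genes tested (11.7%) differed, 381 of them higher (4.78%) and 550 lower (6.91%) at 3 d than at 18 h, at an adjusted p below 0.05 by edgeR's quasi-likelihood test with Benjamini-Hochberg adjustment over all genes tested. All adjusted p-values below come from that fit, and values written as a ± b are the log2 fold change and its standard error. At least 2-fold differences were found for 588 genes (7.38%), 193 higher (2.42%) and 395 lower (4.96%). The CPM of the 4 libraries at 3 d did not overlap those of the 5 libraries at 18 h for 888 genes (11.1%), and 658 genes (8.26%) were both called and free of overlap. The median log2 fold change of all genes was -0.01. Counts for gene lists below are to be read beside these shares of all genes tested. Without the 18 h replicate 3 the count of higher genes was 242, and without the 3 d replicate 2 it was 252.

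Called genes were sorted by their 2 contrasts with vehicle. A gene was said to have faded if it was above vehicle at 18 h and lower at 3 d than at 18 h, and to have rebounded if it was below vehicle at 18 h and higher at 3 d than at 18 h. In all, 288 genes faded (3.62% of genes tested, 30.9% of those called between the times) and 231 rebounded (2.90% and 24.8%). Of the faded genes, 228 were not called against vehicle at 3 d, 49 were still above it and 11 lay below it. Of the rebounded genes, 203 were not called against vehicle at 3 d, 20 were still below it and 8 lay above it. A gene not called against vehicle is not thereby shown to be back at its level. Nor is a gene not called at 18 h shown to be unchanged there. Genes that were not called at 18 h and differed from vehicle at 3 d, in the direction of the change between the times, numbered 80 higher (1.0% of genes tested) and 133 lower (1.67%). A change already present at 18 h went further in the same direction for 6 genes above vehicle (0.0753%) and 73 below it (0.917%). The other 120 genes (1.51%) fell into none of these classes. The classes share the 18 h and vehicle libraries, so a chance high value at 18 h both makes a rise there and makes a fade after it. The class sizes are a description with no test. Some counts moved by more than 1.5 times without 1 library. The rebounded class held 152 genes without the 18 h replicate 3, the class first higher at 3 d held 47 without it and 43 and 42 without the 3 d replicates 2 and 3. Without the 3 d replicate 3 the classes first lower and further lower at 3 d held 85 and 47. The class of 6 genes held 2 to 13 genes as libraries were left out. The 120 genes in no class became 79, 60 and 69 without the 3 d replicates 1, 2 and 3 and 72 without the 18 h replicate 3. Seen from 18 h, 2734 genes (34.3%) differed from vehicle. Of the 1353 higher ones (17.0%) 288 had come down by 3 d (21.3%). Another 6 had risen further and 1059 were not called between the times. Of the 1381 lower ones (17.3%), 231 had come up (16.7%), 73 had fallen further and 1077 were not called between the times. Most genes called at 18 h were therefore not called between the times. Against vehicle at 3 d, where 2064 genes differed (25.9%), 964 of them higher (12.1%) and 1100 lower (13.8%), 549 of those 1059 and 615 of those 1077 were also called.

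**Figure D1:**
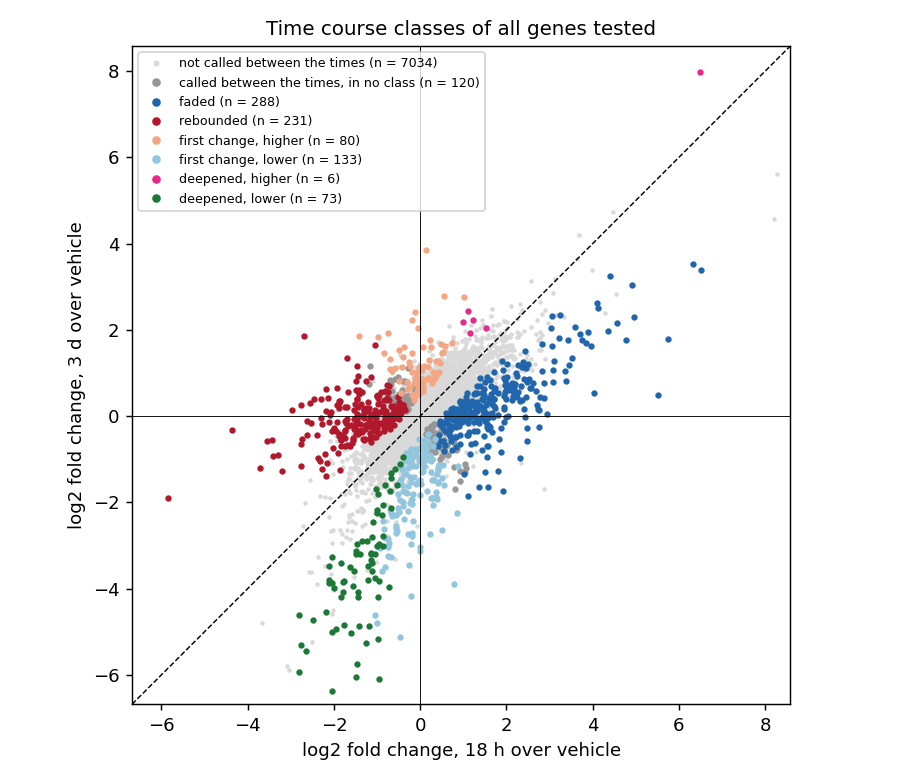
Each point is 1 of the 7965 genes tested, with its log2 fold change of 18 h over vehicle on the horizontal axis and of 3 d over vehicle on the vertical axis, coloured by time course class. Points on the dashed line have equal fold changes at both times. Faded genes (288) lie right of the vertical axis line and below the dashed line, and rebounded genes (231) left of it and above the dashed line.

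Most interferon-stimulated genes faded. Of 39 tested members, 34 were lower at 3 d than at 18 h, against 6.91% of all genes tested, and none was higher. The median log2 fold change was -1.45 against -0.01 for all genes. Every one of the 39 had been above vehicle at 18 h (median 2.41), and at 3 d 15 were still above vehicle, 1 was below it and 23 were not called (median 0.74). The summed level of the list was 5319.9 to 9343 CPM at 3 d, 14521 to 20587 CPM at 18 h and 4637 to 5381 CPM in vehicle. The 3 d libraries thus lay wholly below the 18 h libraries and overlapped the vehicle range at their lower end.

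The promoters of 3 interferon-inducible genes that faded, Isg15, Bst2 and Igtp, are shown because they hold the response element searched for (RefSeq, build GRCm38.p6, from 250 bases before to 50 bases after the gene start, 5′ to 3′ on the gene's strand; capitals mark matches to GAAA, any 2 bases and GAAA, looked for on both strands).
Isg15: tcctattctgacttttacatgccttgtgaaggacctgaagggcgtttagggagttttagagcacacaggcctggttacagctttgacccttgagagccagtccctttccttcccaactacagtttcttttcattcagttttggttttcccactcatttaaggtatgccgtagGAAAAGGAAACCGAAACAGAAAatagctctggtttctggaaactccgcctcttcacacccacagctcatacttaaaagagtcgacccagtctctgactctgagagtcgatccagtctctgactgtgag
Bst2: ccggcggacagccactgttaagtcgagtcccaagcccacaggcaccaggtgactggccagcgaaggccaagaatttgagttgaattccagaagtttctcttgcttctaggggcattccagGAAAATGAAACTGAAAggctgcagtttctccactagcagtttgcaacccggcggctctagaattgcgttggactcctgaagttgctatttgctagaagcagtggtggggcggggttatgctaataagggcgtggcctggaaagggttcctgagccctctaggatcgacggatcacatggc
Igtp: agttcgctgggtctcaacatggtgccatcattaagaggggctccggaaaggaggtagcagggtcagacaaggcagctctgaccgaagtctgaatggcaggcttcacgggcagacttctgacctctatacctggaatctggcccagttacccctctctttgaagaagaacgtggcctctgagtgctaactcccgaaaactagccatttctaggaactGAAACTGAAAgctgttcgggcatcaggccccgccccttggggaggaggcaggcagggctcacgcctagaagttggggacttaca
They lie at chr4:156200769-156201068 (Isg15, minus strand), chr8:71537423-71537722 (Bst2, minus strand) and chr11:58199306-58199605 (Igtp, plus strand). Isg15 holds 3 overlapping matches that begin between -78 and -66 bases from the gene start, Bst2 holds 2 overlapping matches at -130 and -124, and Igtp holds 1 at -34. Among tested interferon-stimulated genes with a promoter in the table, 17 of 28 held the element (60.7%), as did 7 of 8 interferon-inducible GTPase genes (87.5%), against 253 of 6180 tested genes with a promoter (4.09%) and 1079 of 27025 genes in the whole table (3.99%). In the faded class it was 37 of 238 genes (15.5%), and in the rebounded class 6 of 174 (3.45%). Within the interferon-stimulated list, 14 of 24 faded genes (58.3%) and 3 of 4 other genes (75%) held it. The promoters of Oasl2 and Ifi47, named below, held no match. A match is a description of the sequence and shows no binding.

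Isg15, a ubiquitin-like protein that is attached to other proteins in interferon-treated cells, is on chromosome 4, 156199424 to 156200818 (build mm10). It had 444, 369.8, 681 and 356 CPM in the 4 libraries at 3 d, 2419, 2226, 2982, 2834 and 2034 CPM in the 5 libraries at 18 h and 354, 366, 423, 262 and 315 CPM in the 5 vehicle libraries. The 3 d libraries lay wholly below those at 18 h (-2.43 ± 0.21, adjusted p = 6.7e-08) and were not called against vehicle (0.43 ± 0.19, adjusted p = 0.10). Usp18, the protease that removes ISG15 and restrains the interferon receptor, maps to chromosome 6, 121245906 to 121270917. It had 63.8, 49.3, 74.5 and 58.5 CPM at 3 d, 389.6, 312, 397, 460.2 and 284 CPM at 18 h and 38.1, 34.5, 40.2, 27.6 and 35.5 CPM in vehicle. It fell by the most among listed interferon-stimulated genes (-2.58 ± 0.18, adjusted p = 4.0e-09), and all 3 d libraries stayed above all vehicle libraries (0.81 ± 0.18, adjusted p = 0.0029). Bst2, the antiviral membrane protein tetherin, had 642, 575, 823 and 518 CPM at 3 d, 1599, 1241, 1925, 2378 and 1590.5 CPM at 18 h and 332 to 456 CPM in vehicle. There was again no overlap between the times, and a rise over vehicle remained (-1.45 between the times, 0.74 over vehicle, adjusted p = 2.3e-05 and 0.0048). Oasl2, an antiviral protein of the oligoadenylate synthetase family, was at 14.2 to 33.1 CPM at 3 d, 123 to 172 CPM at 18 h and 23.7 to 32.4 CPM in vehicle (-2.45 ± 0.21, adjusted p = 6.7e-08 between the times).

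**Figure D2:**
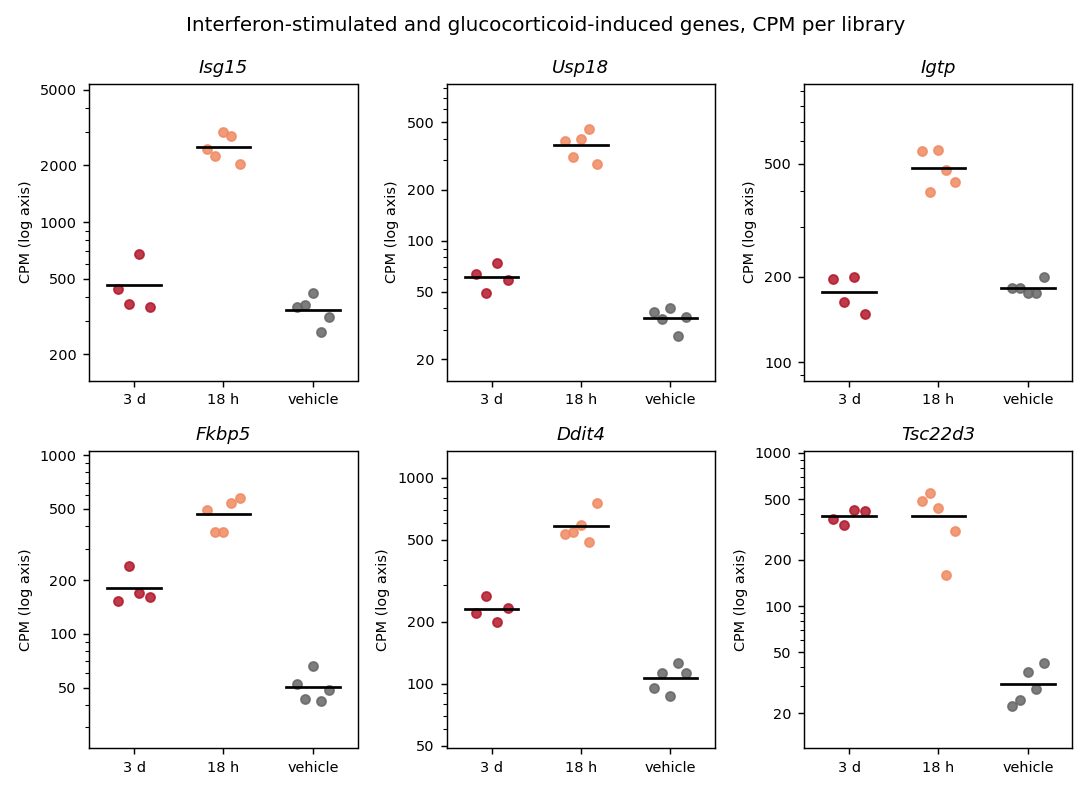
CPM per library on log axes for 3 interferon-inducible and 3 glucocorticoid-induced genes in the 3 d, 18 h and vehicle groups; points are libraries and bars are group means. For Isg15, Usp18, Igtp, Fkbp5 and Ddit4 the 3 d libraries lie below all 18 h libraries, while for Tsc22d3 the groups overlap.

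Most GTPases of the guanylate-binding and immunity-related families, which act against intracellular microbes, were also lower at 3 d. Of 12 tested members 9 were lower at 3 d than at 18 h and none was higher (median -1.30). All 12 had been above vehicle at 18 h. At 3 d none was above vehicle and 2 were below it. Igtp, whose promoter is shown above, sits on chromosome 11, 58199556 to 58207591. It had 196, 163, 199 and 147 CPM at 3 d, 556, 398, 561, 476 and 433 CPM at 18 h and 183, 182, 175, 176 and 199.7 CPM in vehicle (-1.46 ± 0.15, adjusted p = 1.1e-06 between the times). The 3 d libraries lay below those at 18 h, and 2 of them lay below the vehicle libraries and 2 within their range. Igtp overlaps its family member Irgm2 on the same strand for 7974 bases, so their counts may be shared. Ifi47, another immunity-related GTPase, had 179, 71.1, 181 and 163 CPM at 3 d, 271 to 559 CPM at 18 h and 174 to 246 CPM in vehicle (-1.55 ± 0.24, adjusted p = 2.2e-04 between the times). Gbp9, a guanylate-binding protein, went past its vehicle level, with 45.8, 22.8, 39.8 and 39.9 CPM at 3 d, 120.4, 92.4, 129, 107 and 85.2 CPM at 18 h and 78.7, 72.2, 39.2, 67.9 and 64 CPM in vehicle. It was lower at 3 d than at 18 h (-1.51 ± 0.22, adjusted p = 8.9e-05) and than in vehicle (-0.77 ± 0.22, adjusted p = 0.014), with vehicle replicate 3 inside the range of the 3 d libraries. Gbp9 overlaps Gbp4 and Gbp8 on the same strand, which are close copies, so its counts are uncertain.

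Antigen processing for MHC class I, another interferon-inducible pathway, had fewer calls. Of 16 tested genes 5 were lower at 3 d than at 18 h and none was higher (median -0.31), and these were Tapbp, Tap1, Psmb9, Psme2 and H2-T23. The count was 3 without the 18 h replicate 3 and without any of the 3 d replicates 2, 3 and 4. Tapbp, or tapasin, which loads peptides onto class I molecules, lies on chromosome 17, 33915899 to 33929292. It had 357, 403, 368 and 373 CPM at 3 d, 879.6, 681, 841, 942 and 746 CPM at 18 h and 598, 651, 487, 649 and 667 CPM in vehicle. All 3 d libraries lay below every library of the other groups (-1.12 ± 0.15, adjusted p = 2.5e-05 against 18 h and -0.70 ± 0.15, adjusted p = 0.0014 against vehicle). It overlaps Zbtb22 on the same strand. Tap1, a subunit of the peptide transporter, and Psmb9, a subunit of the immunoproteasome, were lower at 3 d than at 18 h by smaller steps (-0.61 ± 0.15, adjusted p = 0.0071 and -0.61 ± 0.14, adjusted p = 0.0061), and their genes overlap at 1 end on opposite strands. The cytokine feedback inhibitors Socs1 and Socs3 also fell (-0.76 ± 0.17, adjusted p = 0.0051 and -0.79 ± 0.19, adjusted p = 0.0066), and Socs3 was still above vehicle at 3 d (1.22, adjusted p = 1.4e-04).

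Glucocorticoid-induced genes behaved unevenly. Of 24 tested members 19 had been above vehicle at 18 h (median 1.84), and at 3 d 14 were above it and 1 below it (median 1.45). Between the times 7 were lower, none was higher and 17 were not called (median -0.14). Fkbp5, a co-chaperone that lowers the receptor's affinity for its hormone, is on chromosome 17, 28399094 to 28517527. It had 152, 239, 169 and 160.5 CPM at 3 d, 494, 372, 369, 539 and 579 CPM at 18 h and 52.3, 43.3, 66.1, 42 and 48.6 CPM in vehicle. It fell between the times (-1.39 ± 0.18, adjusted p = 2.6e-05), and all 3 d libraries were still above all vehicle libraries (1.82 ± 0.19, adjusted p = 9.3e-07). Ddit4, an inhibitor of the growth kinase complex mTORC1, maps to chromosome 10, 59949669 to 59951834. It had 219, 266, 199 and 234 CPM at 3 d, 533, 544, 589, 488 and 757 CPM at 18 h and 94.9, 112, 87, 125 and 113 CPM in vehicle. It too was at an intermediate level at 3 d, with no overlap on either side (-1.34 ± 0.16, adjusted p = 8.4e-06 between the times). Mt1, a metal-binding metallothionein, was at 21.3, 16.1, 7.62 and 19.3 CPM at 3 d and 72.7, 56.5, 75.8, 19.8 and 126 CPM at 18 h, where replicate 4 lay within the 3 d range (-2.09 ± 0.41, adjusted p = 0.0025).

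Tsc22d3, also called GILZ, a mediator of glucocorticoid action, sits on chromosome X, 140539528 to 140600659. It had 371, 339, 427 and 419 CPM at 3 d, 484, 549, 434, 160.3 and 308 CPM at 18 h and 22.3, 24.4, 37.1, 28.7 and 42.4 CPM in vehicle. The groups overlapped between the times, with the lowest and the highest value both at 18 h (0.01 ± 0.26, adjusted p = 0.98), and every dexamethasone library lay above every vehicle library. The receptor gene itself, Nr3c1, was at 85.3 to 118 CPM at 3 d, 78.7 to 191 CPM at 18 h and 62.9 to 98.1 CPM in vehicle. It was not called between the times (-0.27 ± 0.21, adjusted p = 0.46). Bmf, a BH3-only gene that promotes cell death, fell between the times (-1.82 ± 0.42, adjusted p = 0.0066). The call was lost without the 18 h replicates 2 and 3 (-1.17, adjusted p = 0.066). Cxcr4, a receptor that holds cells at sources of CXCL12, had 161, 191, 296 and 176 CPM at 3 d, 232, 116, 123, 96.2 and 134 CPM at 18 h and 21.8, 24.4, 29.5, 17.1 and 24.7 CPM in vehicle. It stood above all vehicle libraries in both dexamethasone groups and was not called between the times (0.56 ± 0.22, adjusted p = 0.12). It was called higher at 3 d without the 18 h replicate 1 (0.81, adjusted p = 0.0059). A glucocorticoid response element half-site pair, ACANNNTGT, was found in the promoters of 3 of 22 listed genes (13.6%), against 304 of 6180 tested genes (4.92%) and 7.9% of all genes in the table. Mt1 held 1 match, and the promoters of Fkbp5, Ddit4, Bmf and Tsc22d3 held none.

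Beyond these lists, the faded genes with the largest fold changes encode proteins of varied function. Calca, the gene of the neuropeptide CGRP, had 5.31, 10.4, 1.69 and 4.82 CPM at 3 d, 125, 25.7, 50.04, 11.3 and 102 CPM at 18 h and 6.09, 4.45, 3.05, 3.31 and 1.54 CPM in vehicle (-3.49 ± 0.70, adjusted p = 0.0047 between the times). Padi3, a peptidylarginine deiminase, had 3.32, 3.79, 3.39 and 1.38 CPM at 3 d, 18.4, 12, 14.7, 38.2 and 40.5 CPM at 18 h and 3.56 to 11.1 CPM in vehicle (-3.08 ± 0.46, adjusted p = 1.3e-04). For both, the 2 times did not overlap, and the 18 h libraries spread widely. Hap1, a huntingtin-associated trafficking protein, was lower at 3 d (1.69 to 4.13 CPM) than at 18 h (16 to 42.6 CPM) and than in vehicle (5.56 to 11.7 CPM; -3.02 ± 0.41, adjusted p = 3.7e-05 against 18 h and -1.65 ± 0.44, adjusted p = 0.0093 against vehicle). Ampd1 and Eno2, enzymes of purine metabolism and glycolysis, fell by 2.90 and 2.77 on the log2 scale (adjusted p = 1.3e-04 and 0.0019). Drc1, which regulates ciliary dynein, had 1.99, 2.84, 1.69 and 1.38 CPM at 3 d, 6.69, 89, 46.4, 6.6 and 11 CPM at 18 h and 0 to 1.1 CPM in vehicle (-3.95 ± 0.94, adjusted p = 0.014). Replicates 2 and 3 were highest at 18 h, and with sample quality weights the gene was not called (-3.37, adjusted p = 0.075). Without those 2 libraries it did not pass the filter on low counts and has no value. Ctla4, an inhibitory receptor, fell (-1.86 ± 0.35, adjusted p = 0.0010) and was still above vehicle at 3 d (3.05 ± 0.49, adjusted p = 1.7e-04). Ier3, a stress-induced early gene, fell to 5.93 to 10.6 CPM at 3 d, against 11.1 to 66.1 CPM at 18 h (adjusted p = 0.0019).

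Some markers of conventional T cells were lower at 3 d than at 18 h, 7 of 13 tested members with none higher (median -1.32), and 6 of the 7 were in the faded class. Without the 18 h replicates 2 and 3 the count was 3. Ccr7, a chemokine receptor of naive and medullary T cells, had 35.2, 45.5, 22 and 33.1 CPM at 3 d, 57.7, 481, 334, 132 and 101 CPM at 18 h and 80.7, 48.9, 39.7, 74.5 and 53.2 CPM in vehicle. Replicates 2 and 3 held the highest values at 18 h, and without them the fall was smaller and still called (-2.70 ± 0.56, adjusted p = 0.0065 with them and -1.54, adjusted p = 0.0018 without). Nsg2, an endosomal protein gene, had 38.5, 38.9, 17.8 and 49.6 CPM at 3 d, 109.5, 354, 349.5, 203 and 242 CPM at 18 h and 119, 95.6, 69.2, 84.5 and 76.3 CPM in vehicle. Every 3 d library lay below all libraries of the other groups (-2.78 ± 0.33, adjusted p = 3.7e-05 against 18 h and -1.28 ± 0.33, adjusted p = 0.0093 against vehicle). S1pr1, the receptor that guides cells out of the thymus, fell between the times (-1.24 ± 0.27, adjusted p = 0.0043). The call was lost without replicates 2 and 3 (-0.86, adjusted p = 0.058). Klf2, the factor that drives S1pr1 transcription, was not called (-0.11 ± 0.41, adjusted p = 0.90), and its sign turned without replicates 2 and 3 (0.65, adjusted p = 0.25). How far conventional T cells contribute to the other faded genes was not tested.

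Most genes of the NKT1 subset were higher at 3 d than at 18 h. Of 25 tested members 17 were higher, against 4.78% of all genes tested, and none was lower. The median log2 fold change was 1.75 against -0.01 for all genes. The libraries of the 2 times did not overlap for 13, against 11.1% of all genes tested. Of the 17, 12 had been below vehicle at 18 h, 3 first rose at 3 d and 2 were in no class. At 3 d, 5 of the 25 were above vehicle and none below (median 0.49). The summed level of the list was 12624 to 17548 CPM at 3 d. It was 2805 to 7647 CPM at 18 h and 9563 to 10861 CPM in vehicle, so the sum at 3 d lay above both other groups. Ccl5, at a mean of 4251 CPM at 3 d and 1174 CPM in vehicle, weighs heavily in that sum. The mean log2 CPM of the members was 7.52 to 8.27 at 3 d and 5.19 to 7.13 at 18 h. In vehicle it was 6.99 to 7.55, which overlapped the 3 d range. The highest 18 h value came from replicate 1, which also stood highest at 18 h for Ccl5, Ifng, Tbx21 and Klrb1c below. Of 12 listed NKT cell markers, 9 could be summed, and Klrb1c and Il2rb among them are also in the NKT1 list. Their sum was 1788 to 2356 CPM at 3 d, 1152 to 1284 CPM at 18 h and 1986 to 2447 CPM in vehicle.

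Ccl5, a chemokine made by cytotoxic cells, lies on chromosome 11, 83525778 to 83530518. It had 4174, 3749.5, 4581 and 4501 CPM at 3 d, 379, 103, 105, 144 and 183 CPM at 18 h and 1097, 1131, 1077, 1079 and 1483 CPM in vehicle. The 3 groups did not overlap, and the 3 d level lay beyond vehicle (4.54 ± 0.31, adjusted p = 6.7e-08 against 18 h and 1.86 ± 0.28, adjusted p = 1.8e-04 against vehicle). Xcl1, a chemokine that attracts cross-presenting dendritic cells, is on chromosome 1, 164931644 to 164935527. It had 403, 344, 586 and 387 CPM at 3 d, 40.1, 17.1, 21.3, 33 and 19.2 CPM at 18 h and 672, 540.1, 535, 472 and 483 CPM in vehicle. It rose between the times with no overlap (4.03 ± 0.23, adjusted p = 1.4e-10), and the 3 d and vehicle libraries overlapped (-0.33 ± 0.20, adjusted p = 0.22). Ifng, interferon gamma, maps to chromosome 10, 118441046 to 118445892. It had 239, 212, 241 and 248 CPM at 3 d, 132, 22.3, 26.5, 48.6 and 54.9 CPM at 18 h and 131, 129, 160.2, 114 and 138 CPM in vehicle. All 3 d libraries lay above all others (2.06 ± 0.35, adjusted p = 0.0013 against 18 h), while the difference from vehicle was not called (0.80 ± 0.34, adjusted p = 0.091). Tbx21, which encodes T-bet, the regulator of type 1 fates, sits on chromosome 11, 97098071 to 97115331. It had 192, 309, 296 and 176 CPM at 3 d, 115, 12.8, 30.9, 38.7 and 61.8 CPM at 18 h and 174, 157, 200.3, 216 and 206 CPM in vehicle (2.23 ± 0.40, adjusted p = 0.0024 between the times). The 2 times did not overlap, and the 3 d and vehicle ranges did.

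**Figure D3:**
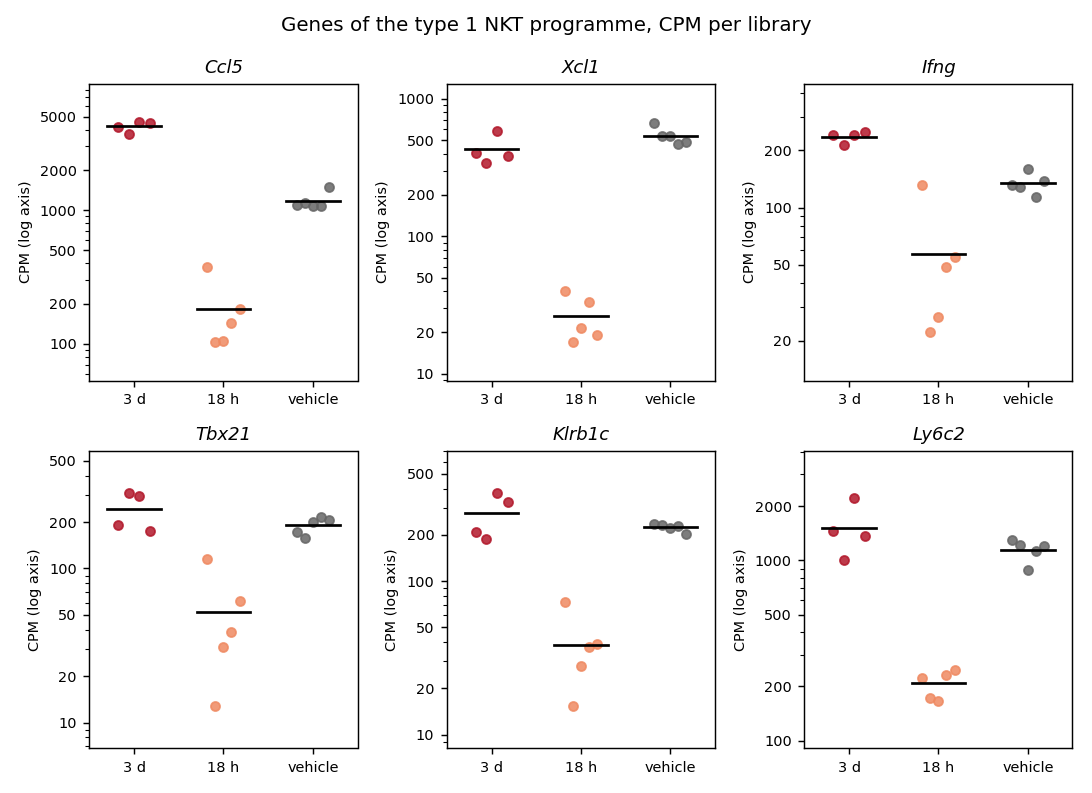
CPM per library on log axes for 6 genes of the NKT1 programme in the 3 d, 18 h and vehicle groups; points are libraries and bars are group means. For each of the 6 genes all 3 d libraries lie above all 18 h libraries, and for Ccl5 and Ifng they also lie above all vehicle libraries.

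Surface receptors and effectors of the NKT1 programme followed. Klrb1c, which encodes NK1.1, lies on chromosome 6, 128778485 to 128789215. It had 209, 189.7, 376 and 329 CPM at 3 d, 72.7, 15.4, 28, 37.2 and 39.1 CPM at 18 h and 236, 231, 223, 229 and 202 CPM in vehicle (2.84 ± 0.29, adjusted p = 7.3e-06 between the times). Ly6c2, a surface antigen of memory and effector cells, had 1456, 1009.9, 2223 and 1369 CPM at 3 d, 223, 172, 166, 231 and 247 CPM at 18 h and 879 to 1295 CPM in vehicle (2.86 ± 0.20, adjusted p = 4.0e-09). Ly6c1 is a near-identical copy, so its counts are uncertain. Of 13 tested NK receptor genes 7 were higher at 3 d than at 18 h and none was lower (median 2.11), after 9 had been below vehicle at 18 h (median -1.93). The count was 11 without the 18 h replicate 1 and with sample quality weights, and 4 in the fit of the 3 d and 18 h libraries alone. Klrk1, the activating receptor NKG2D, rose (2.19 ± 0.36, adjusted p = 6.6e-04), and by more without the 18 h replicate 1 (2.83, adjusted p = 8.5e-08). The NK receptor list shares Klrb1c with the NKT1 list, and the type 1 list shares Ccl5 with it, so these counts are not separate. Of 16 type 1 cytokine and effector genes 8 were higher and none was lower (median 1.16). Among them, Gzmc, granzyme C, was at 27.9, 14.2, 49.1 and 24.1 CPM at 3 d, 5.02, 2.57, 0.736, 6.13 and 2.75 CPM at 18 h and 30.01 to 54.3 CPM in vehicle (2.97 ± 0.40, adjusted p = 3.7e-05). It belongs to a cluster of close copies. Il18rap, a subunit of the interleukin 18 receptor, and Il2rb, the shared receptor subunit for interleukins 2 and 15, rose without overlap (2.18 ± 0.25, adjusted p = 6.2e-06 and 1.45 ± 0.25, adjusted p = 6.1e-04). Cd44, an adhesion receptor of activated and memory cells, rose with overlapping libraries (1.42 ± 0.32, adjusted p = 0.0050). Of 11 listed markers of NK cells and ILC1, only 5 could be summed, Gzma, Prf1, Klrb1c, Tyrobp and Fcer1g, of which Klrb1c and Gzma were called. Their sum was 817 to 1205 CPM at 3 d, 216 to 487 CPM at 18 h and 558 to 696 CPM in vehicle. The other listed markers, Ncr1, Eomes, Klra4, Klra8, Klrg1 and Itga2, are not analysed here. The part of NK cells and ILC1 in the NKT1 rebound was not tested.

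Other rebounded genes belonged to different programmes. Ifitm1, an interferon-induced membrane protein, was at 46.5, 50.3, 44 and 52.3 CPM at 3 d, 9.2, 7.7, 5.89, 2.36 and 6.18 CPM at 18 h and 39.6, 44.5, 24.4, 48 and 47.8 CPM in vehicle. This order was opposite to that of the interferon-stimulated list (3.01 ± 0.29, adjusted p = 4.4e-07). Itgae, the CD103 integrin subunit that binds epithelial E-cadherin, had 209, 271, 270.2 and 189 CPM at 3 d, 104, 152, 138, 108 and 120.2 CPM at 18 h and 221 to 365 CPM in vehicle (0.92 ± 0.17, adjusted p = 0.0011). Sulf2, which removes sulfate groups from heparan sulfate, had 87.7, 103, 134 and 127 CPM at 3 d, 44.3, 10.3, 4.42, 15.6 and 13 CPM at 18 h and 28.4, 25.6, 52.4, 30.9 and 40.1 CPM in vehicle. It went past vehicle (2.71 ± 0.39, adjusted p = 2.6e-04 against 18 h and 1.65 ± 0.37, adjusted p = 0.0038 against vehicle), and without the 18 h replicate 1 the rise between the times was larger (3.33, adjusted p = 8.5e-08). Sulf2 overlaps Ncoa3 on the other strand for 154 bases. Wdr95 rose without overlap (2.71 ± 0.35, adjusted p = 2.3e-05). Of 9 tested NKT17 genes 2 were higher at 3 d than at 18 h and 1 was lower (median 0.17). The higher ones, Tmem176a and Tmem176b, are neighbouring membrane protein genes that overlap at 1 end on opposite strands (1.27 ± 0.24, adjusted p = 0.0013 and 1.45 ± 0.23, adjusted p = 2.0e-04). The lower one, Emb, encodes the adhesion protein embigin (-2.36 ± 0.32, adjusted p = 3.5e-05). Of 28 ribosome biogenesis genes 4 were higher, none was lower and 24 were not called (median 0.42). Among the 4, Mybbp1a, a nucleolar protein gene, rebounded (0.87 ± 0.19, adjusted p = 0.0048). That count of 4 was 10 with sample quality weights, 8 without the 18 h replicate 4 and 2 without the 3 d replicate 3.

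Genes that first rose at 3 d included lipid transport genes. Apoe, apolipoprotein E, is on chromosome 7, 19696109 to 19699188. It had 5368, 3860.5, 1365 and 1909.9 CPM at 3 d, 1100.3, 539, 626, 212 and 889 CPM at 18 h and 369, 467, 331, 675 and 443 CPM in vehicle. The 3 d libraries spread from 1365 to 5368 CPM and lay above all others (2.22 ± 0.45, adjusted p = 0.0052 against 18 h and 2.77 ± 0.46, adjusted p = 7.4e-04 against vehicle). The call between the times was lost without the 18 h replicates 2 and 3 (2.09, adjusted p = 0.055). Apoc1, its neighbour in the same gene cluster, had 458, 186, 91.5 and 123 CPM at 3 d, 21.7, 6.85, 16.2, 3.3 and 35 CPM at 18 h and 5.08 to 23.3 CPM in vehicle (3.72 ± 0.60, adjusted p = 0.0012). It rose by less without the 3 d replicate 1 (3.02, adjusted p = 0.0020). Both genes are also abundant in macrophages. Of 20 listed macrophage markers, 19 could be summed. They summed to 2363 to 8207 CPM at 3 d, 952 to 2477 CPM at 18 h and 1005 to 1908 CPM in vehicle. Apoe is among them, and the other 18 markers summed to 999 to 2839 CPM at 3 d, 741 to 1566 CPM at 18 h and 635 to 1233 CPM in vehicle. Of the 12 tested, 1 (Apoe) was higher at 3 d than at 18 h, 2 (Mrc1 and Hmox1) were lower and 9 were not called. The median log2 fold change of the 12 between the times was 0.70, and 7 of the values were positive. Against vehicle, 5 were higher and 1 lower at 18 h (median 0.49). At 3 d, 5 were higher than vehicle and none was lower (median 1.19). The complement gene C1qa, a defining macrophage marker, was at 145 to 549 CPM at 3 d, 44.8 to 194 CPM at 18 h and 82.2 to 144 CPM in vehicle and was not called between the times (1.32 ± 0.43, adjusted p = 0.062). It was called higher at 3 d by DESeq2 (1.31, adjusted p = 0.040), with a mean of at least 20 CPM (1.29, adjusted p = 0.048) and when the 3 d replicate 3 was left out (1.56, adjusted p = 0.036). The part of macrophages in the rise of Apoe and Apoc1 was not tested. Mrc1, the mannose receptor, and Hmox1, heme oxygenase, fell between the times (-1.99 ± 0.64, adjusted p = 0.045 and -1.52 ± 0.47, adjusted p = 0.046), and their calls were lost in 10 and 15 of the alternatives. Leaving out the 3 d replicate 1 made the fall of Hmox1 larger (-2.18, adjusted p = 0.0069), and leaving out the 18 h replicates 2 and 3 ended its call (-1.71, adjusted p = 0.062).

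Other genes that first rose at 3 d had cytotoxic, secreted and signalling products. Gzma, granzyme A, maps to chromosome 13, 113093825 to 113100981. It had 436, 379, 526 and 309 CPM at 3 d, 179, 46.2, 54.5, 216 and 109.9 CPM at 18 h and 47.7, 52.2, 94.6, 58 and 46.3 CPM in vehicle (1.75 ± 0.39, adjusted p = 0.0085 against 18 h and 2.77 ± 0.40, adjusted p = 2.9e-04 against vehicle). The 18 h mean was already above vehicle, short of the threshold (1.02 ± 0.38, adjusted p = 0.053), so a rise by 18 h is not excluded. The 3 d libraries lay above all others. C3, the central complement protein, was at 54.5, 60.7, 33 and 22 CPM at 3 d, 13.4, 6.85, 8.83, 7.07 and 13.7 CPM at 18 h and 3.55 to 20.04 CPM in vehicle (2.09 ± 0.40, adjusted p = 0.0018). Odc1, the rate-limiting enzyme of polyamine synthesis and a MYC target, sits on chromosome 12, 17544794 to 17551505. It had 81.7, 122, 102 and 75.1 CPM at 3 d, 50.2, 23.1, 20.6, 26.9 and 31.6 CPM at 18 h and 39.1, 37.8, 33.6, 25.4 and 37.8 CPM in vehicle. Its 3 d libraries lay above all others (1.64 ± 0.23, adjusted p = 5.0e-05 against 18 h). Myc itself was at 95.7 to 159 CPM at 3 d, 126 to 202 CPM at 18 h and 164 to 263 CPM in vehicle. It was not called between the times (-0.38 ± 0.19, adjusted p = 0.21). Pla2g2d, a secreted phospholipase A2, Osgin1, an oxidative stress response gene, and Rap1gap2, which switches off the GTPase Rap1, rose by 3.30, 2.30 and 2.66 on the log2 scale (adjusted p = 0.0019, 0.0047 and 2.6e-04). For Pla2g2d, leaving out the 18 h replicate 1 gave 4.43, adjusted p = 2.9e-05. Leaving out the 3 d replicate 1 gave 2.74, adjusted p = 0.0078. Socs2, a feedback inhibitor of growth hormone and cytokine receptors, had 54.5, 62.6, 85.5 and 82.7 CPM at 3 d and 50.2, 5.14, 16.9, 9.9 and 23.3 CPM at 18 h, where replicate 1 was highest (1.79 ± 0.40, adjusted p = 0.0071). Fosb, an AP-1 subunit, showed the same 18 h replicate apart (1.77 ± 0.40, adjusted p = 0.011 with it and 2.38, adjusted p = 6.5e-07 if it is left out).

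Of the 6 genes that rose further after 18 h, Klf6, a zinc finger transcription factor, lies on chromosome 13, 5861482 to 5870394. It had 239.8, 229, 328 and 278 CPM at 3 d, 173, 89, 97.1, 166 and 147 CPM at 18 h and 62.4, 42.2, 85.9, 52.4 and 38.5 CPM in vehicle. The 3 groups did not overlap (0.99 ± 0.22, adjusted p = 0.0046 between the times). Smad7, an inhibitor of TGF-beta signalling, rose as well (1.20 ± 0.32, adjusted p = 0.023). So did Cish, an inhibitor of STAT5 signalling (0.53 ± 0.17, adjusted p = 0.043), and Dnajb9, a chaperone of the endoplasmic reticulum (0.77 ± 0.22, adjusted p = 0.024). Their calls were lost in 4, 11 and 6 of the alternatives, those of Cish and Dnajb9 also without the 18 h replicates 2 and 3 (0.52, adjusted p = 0.12, and 0.66, adjusted p = 0.12).

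Most mitosis genes were lower at 3 d than in both other groups. Of 27 tested mitosis genes 24 were lower at 3 d than at 18 h, against 6.91% of all genes tested. None was higher (median -2.11 against -0.01 for all genes). The libraries did not overlap for 16, against 11.1% of all genes tested. Of the 24, 10 first fell at 3 d, 13 deepened an earlier fall and 1 was in no class. Against vehicle, 14 were lower at 18 h (median -0.81) and 25 at 3 d (median -2.85). The summed level was 186 to 264 CPM at 3 d and 1314 to 1838 CPM in vehicle. At 18 h it was 492, 1049, 1203, 442 and 960.0 CPM in replicates 1 to 5, highest in the replicates 2 and 3 that carried Cd8b1 and above every 3 d library in all 5. Without replicates 2 and 3, 16 of the 27 were called lower at 3 d. The fit of the 3 d and 18 h libraries alone called 15, and a mean of at least 20 CPM, which leaves fewer genes to test, gave 12.

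Mki67, which encodes Ki-67 and marks cycling cells, is on chromosome 7, 135689784 to 135716361. It had 4.65, 2.84, 8.47 and 4.13 CPM at 3 d, 29.3, 65.1, 51.5, 15.1 and 41.9 CPM at 18 h and 41.6, 23.3, 47.3, 39.2 and 14.6 CPM in vehicle. The 3 d libraries lay below all others, and the 18 h and vehicle libraries overlapped (-2.97 ± 0.48, adjusted p = 3.9e-04 between the times). Birc5, the mitotic regulator survivin, maps to chromosome 11, 117849251 to 117855743. It had 3.99, 0.948, 5.08 and 7.58 CPM at 3 d, 30.1, 59.1, 67.7, 20.7 and 46.7 CPM at 18 h and 84.2, 68.9, 69.2, 81.1 and 60.1 CPM in vehicle. It had already fallen at 18 h (-0.72 ± 0.26, adjusted p = 0.041) before the larger fall between the times (-3.25 ± 0.40, adjusted p = 1.7e-05). The topoisomerase gene Top2a fell as well (-2.69 ± 0.44, adjusted p = 6.3e-04), and the fold change was smaller when the 18 h replicates 2 and 3 were left out (-2.09, adjusted p = 5.6e-04). Ccnb2, which encodes cyclin B2, Ube2c, an enzyme that helps degrade mitotic cyclins, and Aurkb, a kinase of chromosome segregation, fell by 2.76, 2.47 and 2.29 on the log2 scale (adjusted p = 0.0019, 2.9e-04 and 2.6e-04). The Ccnb2 value was -3.44, adjusted p = 0.0012 without the 3 d replicate 4. E2f2, a transcription factor of the cell cycle, had 8.64, 6.64, 5.93 and 8.27 CPM at 3 d, 20.1, 49.6, 47.1, 18.4 and 46 CPM at 18 h and 34.2 to 51.7 CPM in vehicle (-2.25 ± 0.33, adjusted p = 1.0e-04).

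Most DNA replication genes were below vehicle at both times. Of 25 tested members 23 were already below vehicle at 18 h (median -1.11) and 23 were below it at 3 d (median -1.19), while between the times 3 were lower, none was higher and 22 were not called (median -0.15). Without the 3 d replicate 3, or without the 18 h replicates 2 and 3, 1 was lower. Mcm5, a subunit of the replicative helicase, sits on chromosome 8, 75109569 to 75128439. It had 60.5, 66.4, 61.8 and 77.1 CPM at 3 d, 79.4, 65.9, 73.6, 65.1 and 69.4 CPM at 18 h and 194, 226, 159.7, 249 and 156 CPM in vehicle. The dexamethasone groups overlapped each other and lay below all vehicle libraries (-0.09 ± 0.17, adjusted p = 0.81 between the times). The 3 lower members were Gins2, of the GINS complex of the replicative helicase (-1.56 ± 0.38, adjusted p = 0.0091), Uhrf1, which maintains DNA methylation (-1.41 ± 0.36, adjusted p = 0.013), and Rrm2, of ribonucleotide reductase (-1.37 ± 0.44, adjusted p = 0.044). The calls of Uhrf1 and Rrm2 were lost in 2 and 13 of the alternatives. Both were lost without the 18 h replicates 2 and 3 (-1.30, adjusted p = 0.050 and -1.23, adjusted p = 0.14). Without the 3 d replicate 4 the Rrm2 value was -2.21, adjusted p = 0.0054. Gins2 overlaps Gse1 on the other strand.

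**Figure D4:**
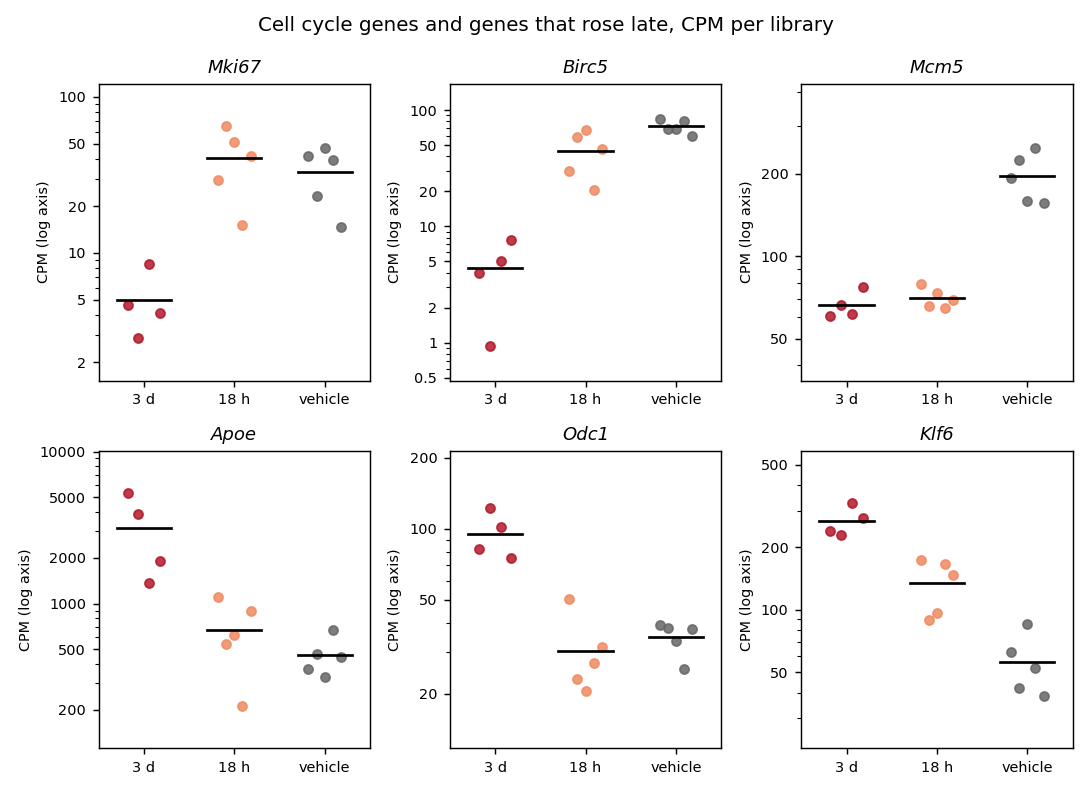
CPM per library on log axes for 3 cell cycle genes (Mki67, Birc5, Mcm5) and for 3 genes higher at 3 d (Apoe, Odc1, Klf6) in the 3 d, 18 h and vehicle groups; points are libraries and bars are group means. Mki67 and Birc5 lie below all other libraries at 3 d, the Mcm5 values of the dexamethasone groups overlap below vehicle, and Apoe, Odc1 and Klf6 lie above all other libraries at 3 d.

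Other genes that first fell at 3 d or fell further there lay outside the cell cycle. Akr1c18, a steroid-metabolising reductase with close copies, had 1.33, 0.948, 0.847 and 0 CPM at 3 d, 10.9, 12, 20.6, 26.9 and 37.8 CPM at 18 h and 4.57, 22.2, 13.7, 18.2 and 6.94 CPM in vehicle (-4.69 ± 0.67, adjusted p = 9.6e-05). At 3 d these are 0 to 2 counts a library, so the fold change is imprecise. Rpph1, the RNA of ribonuclease P, fell (-3.96 ± 0.70, adjusted p = 0.0016), as did the imprinted noncoding RNA H19 (-2.52 ± 0.53, adjusted p = 0.0047). Rpph1 overlaps Ccnb1ip1 on the same strand for 284 bases, so its counts are uncertain. Falls were also found for the scavenger receptor gene Cd163l1 (-2.46 ± 0.38, adjusted p = 1.8e-04) and the cytoskeletal adaptor gene Pdlim4 (-2.23 ± 0.44, adjusted p = 0.0016). Cntnap1 and Ccr10 were lower at 3 d than at 18 h (-3.44 ± 0.64, adjusted p = 0.0017 and -2.96 ± 0.65, adjusted p = 0.0068) after a fall already at 18 h. Ccr10, a chemokine receptor gene, lies inside Cntnap1 on the opposite strand, and with strand handling not given in the sources used here their counts cannot be told apart. Without the 3 d replicate 2 the Cntnap1 value was -4.25, adjusted p = 0.0021.

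Genes of the NKT2 subset were lower at 3 d than at 18 h for 8 of 14 tested members, against 6.91% of all genes tested. None was higher (median -1.08). The count was 5 without the 3 d replicate 2 and 4 without the 3 d replicate 3. Ccr7, 1 of the 8, is also among the conventional T cell markers above. Zbtb16, the PLZF factor that directs innate-like T cell development, lies on chromosome 9, 48654297 to 48836222. It had 14, 26.6, 17.8 and 14.5 CPM at 3 d, 50.2, 18.8, 35.3, 77.3 and 65.2 CPM at 18 h and 80.7, 76.7, 41.7, 81.7 and 64.8 CPM in vehicle. The 18 h replicate 2 lay within the 3 d range, and all vehicle libraries lay above that range (-1.49 ± 0.34, adjusted p = 0.0071 against 18 h and -1.94 ± 0.34, adjusted p = 5.1e-04 against vehicle). Il13, interleukin 13, is on chromosome 11, 53631324 to 53634702. It had 7.31, 4.74, 2.54 and 7.58 CPM at 3 d, 11.7, 14.6, 19.9, 16 and 35.7 CPM at 18 h and 79.7, 95.6, 66.6, 98.8 and 86.3 CPM in vehicle. The 3 groups did not overlap, and the later fall came on top of the first (-1.77 ± 0.35, adjusted p = 0.0017 between the times). Icos, a costimulatory receptor, had 31.2, 24.7, 32.2 and 33.7 CPM at 3 d, 90.3, 36, 49.3, 73.1 and 62.5 CPM at 18 h and 61.9 to 92.5 CPM in vehicle (-1.03 ± 0.23, adjusted p = 0.0050).

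The cytokine gene Il4 and the type 2 regulator Gata3 were not called. Il4 had 59.8, 50.3, 48.3 and 59.9 CPM at 3 d, 34.3, 22.3, 41.9, 58.5 and 67.3 CPM at 18 h and 80.7, 33.3, 88.5, 47.5 and 51.7 CPM in vehicle. All groups overlapped (0.27 ± 0.29, adjusted p = 0.62). Gata3 was at 119 to 143 CPM at 3 d, 77.8 to 171 CPM at 18 h and 75.6 to 152 CPM in vehicle (0.04 ± 0.22, adjusted p = 0.93). Il4ra, the interleukin 4 receptor, was not called either (-0.57 ± 0.40, adjusted p = 0.40). Il17rb, a receptor subunit for interleukin 25, was lower at 3 d (-1.60 ± 0.43, adjusted p = 0.026), a call lost in 6 of the alternatives. It overlaps Actr8 on the other strand for 10220 bases. Pdcd1, the inhibitory receptor PD-1, had 100.3, 72.1, 37.3 and 80.6 CPM at 3 d, 698, 112, 248, 186 and 512 CPM at 18 h and 170.0, 174, 156, 198 and 146 CPM in vehicle. It was lower at 3 d than at 18 h (-2.26 ± 0.46, adjusted p = 0.0055), with neither time called against vehicle. Id3, which restrains E proteins and is known to limit innate-like T cell fates, had 127, 90.1, 33 and 62 CPM at 3 d, 112, 395, 358, 467 and 256 CPM at 18 h and 434, 425, 349, 416 and 436 CPM in vehicle. It fell between the times (-2.02 ± 0.39, adjusted p = 0.0034), with the 18 h replicate 1 inside the 3 d range. Cd4, the coreceptor carried by part of the NKT cells, had 100.3, 91, 94.9 and 105 CPM at 3 d, 145, 316, 374, 119 and 274 CPM at 18 h and 329, 283, 163, 332 and 316 CPM in vehicle. It fell as well (-1.32 ± 0.30, adjusted p = 0.0074), and its highest values at 18 h were again in replicates 2 and 3.

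**Figure D5:**
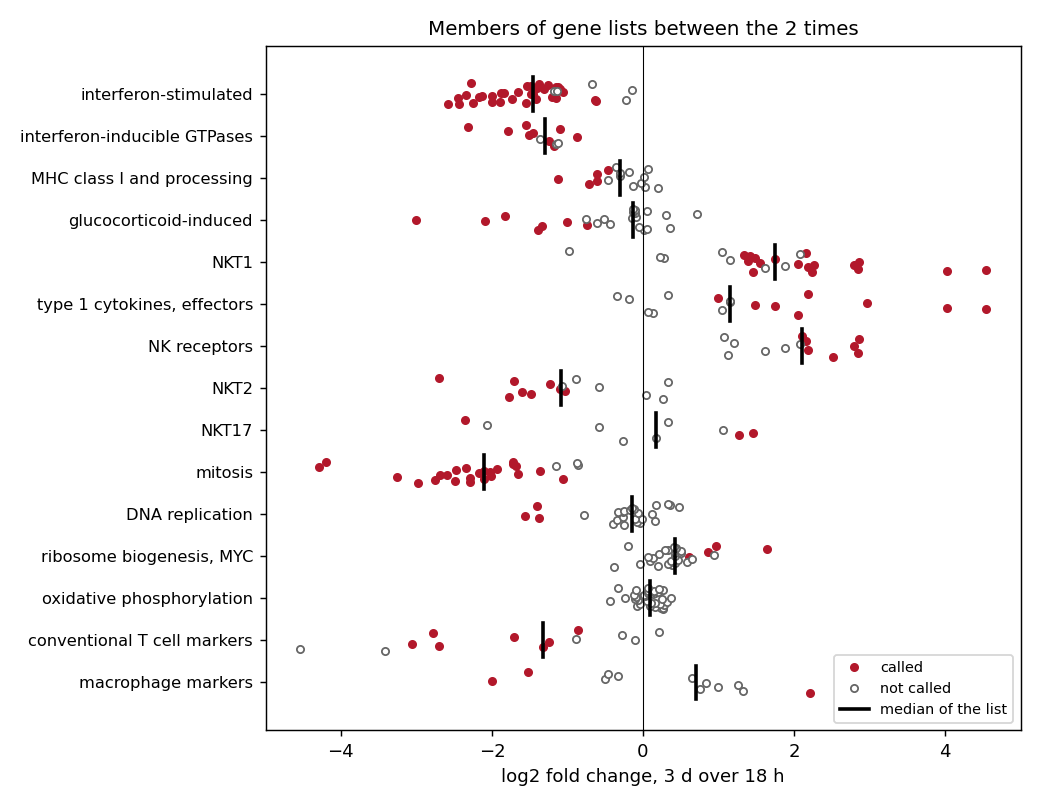
Log2 fold change of 3 d over 18 h for each tested member of 15 gene lists, 1 list a row; filled points passed the test, open points did not, and bars are list medians. The NKT1, type 1 and NK receptor lists have medians of 1.16 to 2.11, the interferon, NKT2 and mitosis lists medians of -2.11 to -1.08, and the DNA replication and oxidative phosphorylation lists medians of -0.15 and 0.09.

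For several other programmes the calls between the times were absent, few or in both directions, beside 11.7% of all genes tested. None of 35 oxidative phosphorylation genes was called (median 0.09), although 19 were below vehicle at 18 h and 13 at 3 d. None of 25 proteasome genes (median 0.04) and none of 11 heat shock genes (median -0.08) was called. Of 40 ribosomal protein genes 3 were higher and none lower (median 0.27). Of 19 immediate early genes, which respond to handling, 2 were higher and 1 lower (median -0.11), and of 20 NF-kB targets 1 was higher and 3 lower (median -0.13). For immediate early genes and NF-kB targets the share called was not below that of all genes. In the authors' deposited table, 430 names were higher and 655 lower at 3 d than at 18 h at an adjusted p below 0.05. Of the genes tested here, 912 were called in the same direction in both analyses, 19 here alone, 83 in the authors' deposited table alone and none in opposite directions.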

How the data were processed

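Bulk MARS-seq libraries of sorted thymic NKT cells were analysed as a deposited table of raw counts per gene name and library. Per the submitters' processing notes, the authors' tools were STAR 2.5.2b, HTSeq, cutadapt, bcl2fastq and DESeq2, and the mouse build was mm10. No role or order is named for them. Handling of strand and of molecular identifiers: not given in the sources used here. The same deposited table holds the authors' log2 fold changes and adjusted p-values, with 18 h over 3 d, and was used only to compare calls. Of 10320 names, 17 converted to dates by a spreadsheet were left out (0.102% to 0.147% of counts per library). The table lists only genes with 6 or more counts in 1 library or more.

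Libraries were scaled by TMM, genes with low counts were removed by filterByExpr, and 7965 genes were fitted with edgeR 4.0.16 (R 4.3.3, limma 3.58.1) as a robust quasi-likelihood model over the 3 groups, which share 1 estimate of spread. P-values of each contrast were adjusted by Benjamini-Hochberg over the 7965 genes, and calls were made at an adjusted p below 0.05. Between the times 2013 genes had an unadjusted p below 0.05. CPM used TMM-scaled library sizes. The fit was tested on simulated counts first.

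Groups came from the labels. The replicate numbers that groups share did not pair samples. Named genes are a selection from those with the largest fold changes in each time course class, among called genes of at least 20 CPM whose libraries did not overlap between the times, from the called members of each list with the smallest adjusted p, and from a set of genes named whatever their call. The groups compared, the 43 lists (739 genes, 12 lists of them cell type markers) and the tests were chosen with earlier results of these data known, so they are no independent support. List counts are descriptions beside the counts over all genes tested.

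Coordinates are from GENCODE M21 on mm10, and promoters from RefSeq on GRCm38.p6. Alternatives were DESeq2 1.42.0, other scalings and filters, the 3 d and 18 h libraries alone, replicate blocks, sample quality weights, a 2-fold minimum, each library left out, and the 18 h replicates 2 and 3 left out together. Overlapping genes are given where the other gene was also tested, and for Rpph1. Some results for single genes are not reported here.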

Additional observations from a re-analysis of the deposited data

Results flagged for a closer look

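In 294 sets of 4 or 5 libraries, 1 for each group and each named gene or the library totals, 19 held a library far from the others of its group by Dixon's test, which chance gives in about 1 in 20 sets. The 18 h replicate 1 was apart for 6 genes and was the highest library of its group in each, at 232 CPM for Cxcr4, 379 CPM for Ccl5, 45.2 CPM for Klrk1, 44.3 CPM for Sulf2, 10.9 CPM for Pla2g2d and 140 CPM for Fosb. Vehicle replicate 3 was apart for 7 genes, at 94.6 CPM for Gzma, 26.4 CPM for Rpph1, 349 CPM for Id3, 163 CPM for Cd4, 32.0 CPM for Dnajb9, 2.54 CPM for Il4ra and 6.10 CPM for Hmox1. The 3 d replicate 2 was low for Oasl2 (14.2 CPM) and Ifi47 (71.1 CPM), and the 3 d replicate 1 was high for Cd8b1 (21.3 CPM). Single vehicle libraries were apart for Ccl5 (1483 CPM), Klrk1 (50.8 CPM) and Osgin1 (48.9 CPM).

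Among named genes, 6 lay on opposite sides of vehicle at the 2 times, each called on both sides, and the contrast of 3 d with 18 h tests that difference. Ccl5 and Sulf2 were above vehicle at 3 d and below it at 18 h, with log2 fold changes of 3 d over 18 h of 4.54 and 2.71. Gbp9, Tapbp, Hap1 and Nsg2 were below vehicle at 3 d and above it at 18 h, with log2 fold changes of -1.51, -1.12, -3.02 and -2.78.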

How the results depend on the processing

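Of 2300 values of the 97 named genes under the alternatives, 2207 kept their direction and their side of the threshold, 71 lost the call, 8 gained it and 14 changed sign. Of the 86 called genes, 74 kept call and direction under every alternative in which they were tested. A gene that an alternative's filter on low counts removed has no value there and was not counted as lost. The sign changes all fell on genes that were not called: Tsc22d3 was at -0.0026 with upper-quartile scaling, -0.017 with at least 20 CPM, -0.00043 with the 3 d and 18 h libraries alone, and -0.19 to 0.17 as libraries were left out. Leaving out 1 library gave -0.32 to 0.24 for Klf2 and -0.10 to 0.17 for Gata3, and without the 18 h replicates 2 and 3 Klf2 was at 0.65 and Gata3 at -0.047. The fit on the 3 d and 18 h libraries alone called 607 genes, 229 of them higher. At least 2-fold differences gave 588, 193 of them higher, with 137 rebounded, 35 first higher and 3 further higher. A mean of at least 20 CPM left 53 first higher, 83 first lower and 38 further lower. Sample quality weights called 3129 genes between 3 d and vehicle, with 148 first higher and 19 further higher. Without the 18 h replicates 2 and 3, 233 were higher, 149 rebounded and 48 first higher. Leaving out 1 library gave 643 to 1028 called genes, 242 to 429 higher and 401 to 619 lower, 2160 to 3154 between 18 h and vehicle and 1488 to 2587 between 3 d and vehicle. The classes then held 212 to 332 faded, 152 to 267 rebounded, 42 to 103 first higher, 85 to 172 first lower, 2 to 13 further higher and 47 to 84 further lower genes, with 60 to 157 in no class. Same-numbered libraries did not deviate together (r of 0.03, -0.15, -0.13 and 0.03 by title). A replicate block by those numbers left 53 genes first higher, a block by the numbers of the column names 47, with 77 genes in no class and Klf2 at 0.26. Other class counts and totals stayed within 1.5 times under both blocks. Apart from the filters and left-out libraries themselves, the cause of these moves was not tested. With 1 count worth up to 1.11 CPM, fold changes of genes at a few CPM are imprecise.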
